A study of Mus musculus with 4 samples.

Results

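The cytosolic ribosomal protein genes encode the protein chains of the small and large subunits of the cytosolic ribosome. They were taken as the protein-coding genes with a mouse symbol of the form Rps or Rpl, a number and at most 1 of the letters a, x, y or l, plus Rpsa, Rplp0, Rplp1 and Rplp2. Pseudogenes, Rps27l and the S6 kinase genes were left out. The rule found 79 genes among the 53715 of the count table: 30 of the small subunit, 46 of the large subunit and the 3 of the acidic stalk (Rplp0, Rplp1, Rplp2). They are spread over the genome, with 14 on chromosome 7, 7 each on chromosomes 11 and 17, and 4 on the X.

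Invariant natural killer T (iNKT) cells are T cells with a near-constant receptor for lipids on CD1d. They were sorted from the thymus of C57BL/6 mice aged 6 to 8 weeks as 7AAD-negative, CD1d-tetramer+ TCRβ+ cells, and Smart-seq2, a full-length cDNA method, was used for the libraries. Wild-type (WT) mice gave 2 libraries and Mettl3 fl/fl CD4-cre mice, called Mettl3 knockout here, gave 2. The floxed gene encodes the m6A methyltransferase, and the Cd4-driven Cre acts in all cells that have passed through a CD4-expressing stage, not only in iNKT cells. The WT label names neither the floxed allele nor Cre. Nothing says whether the 2 libraries of a genotype came from separate mice, so p-values reflect how far these libraries vary, which may be technical.

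Ribosomal proteins are made in near-equal amounts, since each ribosome holds 1 copy of most of them, and their mRNAs are among the most abundant and shortest of any cell. Many of these mRNAs begin with a C and an unbroken run of pyrimidines, the 5′ terminal oligopyrimidine tract through which mTOR and LARP1 control their translation. In T cells, entry into growth and division calls for new ribosomes, and single subunits such as RPL22 are known for roles in thymocyte development.

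The tract is shown here because it is the sequence feature by which these mRNAs are usually recognised. A start was counted when an annotated protein-coding transcript began with C and held at least 5 pyrimidines (C or T) in an unbroken run, on the transcribed strand only. In the GENCODE M21 annotation 22 of 79 members had such a start (27.85%), against 662 of 11615 other tested protein-coding genes (5.70%). On the principal transcript alone it was 9 of 79 (11.39%) against 253 of 11615 (2.18%). The members with a run of at least 10 are given first, followed by Rpl30, whose fitted difference was the highest; capitals mark the pyrimidine run. All are in GRCm38, read 5′ to 3′ from the annotated transcript start. Those of Rps24, Rpl32 and Rps2 are the principal transcript's, and the other 5 belong to another annotated transcript of the gene.
Rps24 (chr14:24490718-24490742, plus strand): CTCTTTTCCTCCTCTCCagctccgg
Rpl32 (chr6:115808723-115808747, minus strand): CTTCCTTCTTCCTCggcgctgccta
Rps2 (chr17:24720110-24720134, plus strand): CTTCTTCTTCTTCgggagaacacgt
Rpl10 (chrX:74270857-74270878, plus strand): CTCTTTTCCTCTggcgcggtga
Rps25 (chr9:44407695-44407719, plus strand): CCTTTTTTTCCgacatcttagcgag
Rps3 (chr7:99483627-99483651, minus strand): CCTTTCCTTTCagcggcgcgcggct
Rps10 (chr17:27635220-27635244, minus strand): CTTCCTTTCCagcctccgcctcgga
Rpl30 (chr15:34443198-34443222, minus strand): CCTTTCTCgctccccggccatcttg
Rps24 carried the longest run, 17 pyrimidines. Annotated starts can lie some bases from the start used in these cells, and a missing run says only that these letters are not at the annotated start.

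RefSeq promoter windows (GRCm38.p6; 300 bases from 250 before the start to 50 after it) were matched for 59 members, with 70 windows in all. The letters CCGGAAG, the core bound by ETS factors, were found on either strand in 25 of the 70 (35.7%) against 8.86% of all 32851 windows. GCCATCTT, the core bound by YY1, was in 7 (10%) against 2.75%, and TATAAA was in 6 (8.57%) against 13.6%. Each motif was counted on its own, whether or not it overlapped another. A match describes the sequence and is no evidence of binding in iNKT cells.

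Counts over all genes totalled 24374587 to 28316016 per library. Mettl3, the targeted gene, was at 92.2 and 123.6 CPM (read counts per library size, scaled by TMM) in WT and 78.1 and 91.4 CPM in the knockout (log2 fold change -0.35, SE 0.19; edgeR adjusted p = 0.357), a count over the whole gene that does not test deletion of the floxed part. T cell markers were present in every library, with Trbc2 at 1167 to 1295 CPM, but not all were even between genotypes. Of 8 iNKT and T cell markers edgeR called Trac lower (log2 fold change -0.58, edgeR adjusted p = 0.0124). It called Cd5 higher (0.67, edgeR adjusted p = 0.0275). With the replicate number as a block neither passed (edgeR adjusted p = 0.0971 and 0.125). Markers of other cells moved with genotype. The summed level of 12 myeloid and dendritic cell markers was 147.5 and 271.5 CPM in WT and 2041 and 2181 CPM in the knockout. Of the 10 tested, edgeR called 5 higher and 1 lower, against 1.09% and 1.51% of all tested genes. Itgam and Flt3 were at 0 in both WT libraries. The 8 CD4+CD8+ thymocyte markers summed to 757.2 and 880.0 CPM in WT and 1301 and 1171 CPM in the knockout, with 0 of 8 called by edgeR. At an unadjusted p under 0.05, 5 were higher (10.5% of all tested genes were), and DESeq2 called 5 higher (4.67% of all genes). All 6 NKT1 and all 5 NKT17 markers had both knockout libraries below both WT libraries, where 24.9% of all tested genes did. EdgeR called 5 of the 6 and 3 of the 5 lower, against 1.51% of all tested genes. With 1 library left out in turn, the NKT1 count was 2 to 5, the NKT17 count 1 to 2 and the count of higher myeloid markers 2 to 4. Their part in the results below was not tested, and in bulk cells fewer cells of a type and less RNA per cell cannot be told apart.

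The members together took a small share of the counts, and that share was lower in the knockout. They held 1.48% and 1.34% of all counts in WT replicates 1 and 2, and 1.25% and 1.24% in knockout replicates 1 and 2. The means were 1.41 ± 0.0982% in WT and 1.24 ± 0.00564% in the knockout (SD, n = 2), a difference of -0.166 percentage points, and the genotypes did not overlap. The gap between the 2 WT libraries was wider than that between WT replicate 2 and either knockout library. The small subunit genes accounted for 0.545% and 0.491% in WT and 0.447% and 0.439% in the knockout, and the large subunit and stalk genes for 0.935% and 0.85% against 0.802% in each. The summed share of mitochondrial ribosomal protein genes, which serve the separate ribosome of the mitochondrion, was higher in the knockout. It was 0.329% and 0.301% in WT and 0.349% and 0.345% in the knockout. The 2 WT libraries lay further apart in it than WT replicate 1 lay from either knockout library. Gene by gene this group centred on no difference, with 42 of 77 tested negative and a median log2 fold change of -0.01. With 2 libraries a genotype no exact permutation test can pass, so these shares are given as values.

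Levels per length, as CPM per kilobase of the principal mRNA, differed over a very wide range although the proteins are made in near-equal amounts. Rpl4, which encodes a protein of the exit tunnel, was highest at 1850 CPM per kilobase in WT and 1698 in the knockout, and held 20.5% of all member counts. Rplp0, the base of the stalk, followed with 1238 and 1200, and Rps2 with 1119 and 954.2. The 5 most counted members (Rpl4, Rplp0, Rps2, Rps3 and Rpl6) took 52.2% to 55.5% of member counts in each library. Lowest of the tested members was Rpl24 at 1.44 and 0.758 CPM per kilobase, resting on 29, 23, 13 and 13 reads, and 9 members lay under 10. Level per kilobase rose with coding length across members (Spearman's rho 0.51, Pearson's r 0.57 with log2 level, n = 76 genes that share the same libraries and are not independent). The median was 10.6 CPM per kilobase for the 9 members with a coding sequence of up to 300 bases, 36.0 for the 27 up to 450, 39.5 for the 19 up to 600, and 145.8 for the 21 above that. Rpl41, with the shortest coding sequence at 75 bases, stood above that pattern at 40.8 in WT and 39.5 in the knockout. Whether this range lies in the cells or in the measurement was not tested, so these values are not read as relative amounts of the mRNAs in the cell. The comparisons below are within 1 gene between libraries.

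**Figure D1:**
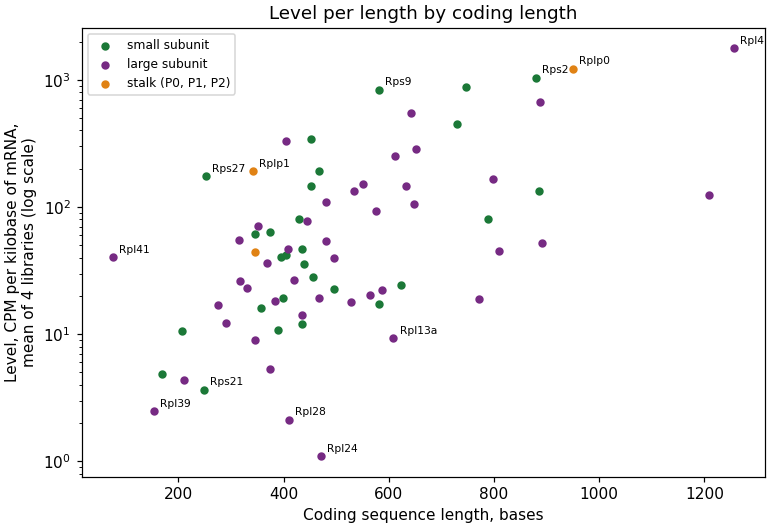
Level of 74 of the 76 tested ribosomal protein genes in CPM per kilobase of mRNA (mean of 4 libraries, log axis) against coding sequence length in bases; each point is a gene, coloured by subunit. The class with the shortest coding sequences has the lowest median (10.6), and Rpl24 and Rpl4 mark the lowest and highest genes.

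Near-identical copies bear on these counts. The table lists 294 genes named as pseudogenes of 59 members, up to 24 for Rps12, and 127 of them had at least 1 count. Together they held 0.734% and 0.598% of the member counts in WT and 0.567% and 0.619% in the knockout. For most members the copies took few reads, but they took 19.3% of the combined reads of Rpl23a and 18.2% of those of Rps12, so at least these 2 are uncertain. Copies not named after a member were not counted. Few reads on the copies do not show that a member's own count is unaffected, since reads that fit both may be missing from both. The most counted copy, Rps6-ps4, had 855 and 624 reads in WT and 340 and 413 in the knockout. How reads that fit several places were counted is not given in the sources used here.

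Of the 79 members, 76 passed the filter on low counts. Rpl3l and Rpl10l, paralogs of Rpl3 and Rpl10 known from muscle and testis, had no read in any library, which allows up to 0.107 to 0.120 CPM (3 counts). Rpl39l, the paralog of Rpl39, had 7, 0, 1 and 0 reads in WT replicates 1 and 2 and knockout replicates 1 and 2.

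No single ribosomal protein gene passed the test between genotypes, while nearly all leaned the same way. With edgeR (quasi-likelihood, p adjusted by Benjamini-Hochberg over all 14185 tested genes) 0 of 76 members were higher and 0 were lower at an adjusted p under 0.05. Over all tested genes 2.59% were called, 1.09% higher and 1.51% lower. At an unadjusted p under 0.05, 27 members were lower (35.5%, against 9.69% of all genes) and 0 were higher (10.5% of all genes; 20.2% either way). The log2 fold change was negative for 71 of 76 members (93.4%, against 48.7% of all tested genes). Its median was -0.38 with an interquartile range of -0.63 to -0.23, beside 0.02 (-0.32 to 0.40) over all tested genes. Both knockout libraries lay below both WT libraries for 57 members (75%, where 24.9% of all tested genes did) and above both for 3 (25.4% of all genes did; 50.3% did either way). The other 16 members overlapped between genotypes. DESeq2 called 11 members lower and 0 higher, where it called 4.73% and 4.67% of all genes (9.4% together), and limma voom called 0 in either direction (1.9% of all genes). These are counts over genes measured in the same 4 libraries, so they describe the group and do not add replicates.

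**Figure D2:**
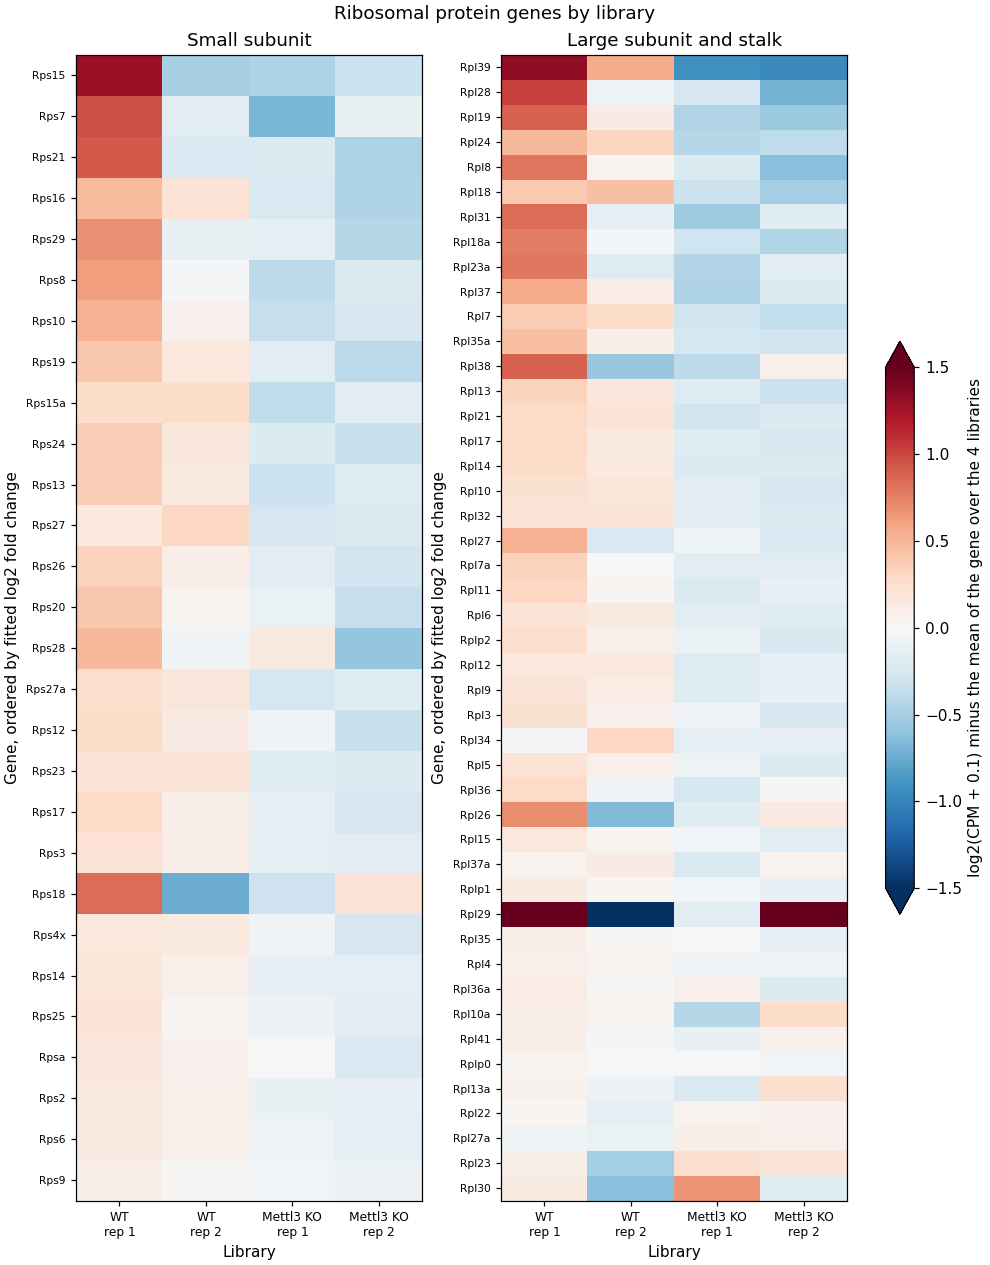
Each row is 1 of 74 tested ribosomal protein genes and each column a library; colour is log2(CPM + 0.1) minus the gene's mean over the 4 libraries, and values beyond the scale of -1.5 to 1.5 are drawn at its ends. WT replicate 1 is the highest of the 4 libraries for 63 of the 74, and both knockout columns are below both WT columns for 55.

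WT replicate 1 stood apart from WT replicate 2 in the same direction as WT stood from the knockout. It was the highest of the 4 libraries for 65 of 76 members and above WT replicate 2 for 71 (93.4%), where it was above it for 50.0% of all tested genes. The median log2 ratio of WT replicate 2 to replicate 1 was -0.17 over the members, and that of knockout replicate 2 to replicate 1 was -0.03. For 20 of 76 members the gap between the WT libraries was larger than the fitted difference between genotypes. The matching share of all tested genes is not given, so this count does not compare the members with other genes. Without WT replicate 1 the median log2 fold change of the members was -0.26, with 64 of 76 negative, and without WT replicate 2 it was -0.49, with 72 of 76 negative. Without knockout replicate 1 or 2 it was -0.41 and -0.39. The sign of the median was therefore the same whichever library was left out, and 0 members were called in each of these 4 fits.

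Short mRNAs as a class also leaned lower in the knockout. Among 642 other protein-coding genes with a principal mRNA of up to 1000 bases the median log2 fold change was -0.22, 65.1% were negative, and both knockout libraries were lower for 39.9%. For the 50 members of that length the median was -0.40, with 49 negative and 35 (70%) lower in both knockout libraries. In the same class the median log2 ratio of WT replicate 2 to replicate 1 was -0.19 for the other genes and -0.25 for the members. For mRNAs of 1000 to 1500 bases the medians were -0.32 over 15 members and -0.05 over 1136 other genes, and for 1500 to 2000 bases -0.28 over 6 members and -0.01 over 1421 others. With the trend of counts on mRNA length removed from each library, an alternative chosen after seeing the data, the members' median was -0.24, with 61 of 76 negative and 0 called. With exon length in its place it was -0.36, with 70 of 76 negative. Among the members themselves the log2 fold change had little relation to mRNA length (rho 0.14, r 0.07, n = 76) and more to abundance, as mean log2 CPM (rho 0.45, r 0.47), the less counted members having the lower and less certain values.

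**Figure D3:**
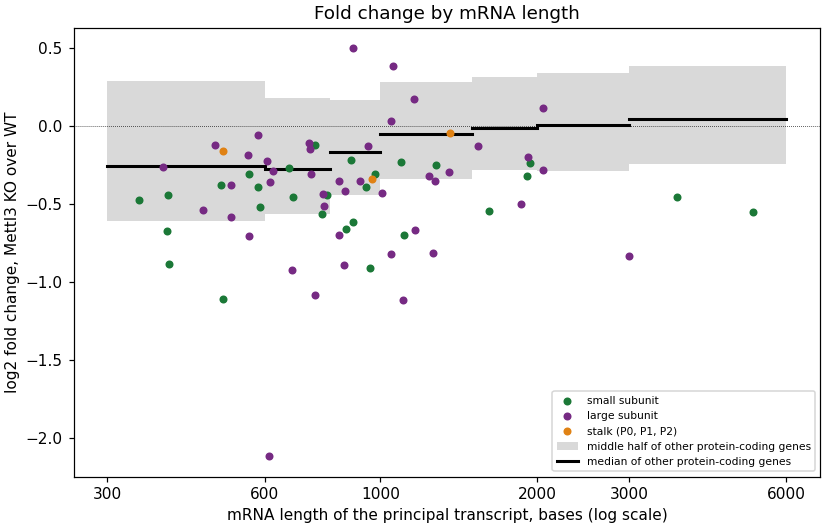
Fitted log2 fold change (knockout over WT) of 74 tested ribosomal protein genes against the length of its principal mRNA in bases (log axis), coloured by subunit. Black lines are medians and grey bands interquartile ranges of other tested protein-coding genes in the same length class; the median of all 76 members lies below the black line in each of the 7 classes.

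Every one of the 30 small subunit genes had a log2 fold change below 0 (median -0.45), and 25 had both knockout libraries lower. Rps15, which encodes a protein needed for export of the small subunit from the nucleus, was at 12.6 CPM in WT replicate 1 and at 3.58, 3.65 and 4.05 CPM in the other 3 libraries. Its value of -1.10 thus came from 1 library: without WT replicate 1 it was 0.09.

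The better counted small subunit genes had smaller and tighter values. Rps3, a protein of the mRNA entry site, was at 990.8 and 907.5 CPM in WT and 766.7 and 757.6 CPM in the knockout (-0.32 on the log2 scale, 95% interval -0.52 to -0.12; edgeR adjusted p = 0.104; DESeq2 adjusted p = 0.0126). Rps6, which encodes the S6 kinase substrate, was at 839.0 and 806.2 CPM against 725.2 and 690.2 CPM (-0.22, 95% interval -0.41 to -0.02; edgeR adjusted p = 0.203). In both genes every knockout library was below every WT library. Rps27a, which encodes ubiquitin fused to a ribosomal protein, was at 179.8 and 168.7 CPM against 124.6 and 132.3 CPM (-0.44, SE 0.12; edgeR adjusted p = 0.114). Rps19 and Rps14, known from inherited and acquired anaemias, had log2 fold changes of -0.56 (SE 0.22) and -0.27 (SE 0.11), with edgeR adjusted p of 0.204 and 0.234. Rps19 was at 46.4 and 39.2 CPM in WT and 31.6 and 26.5 CPM in the knockout, again without overlap. Rps4x, an X-linked member, was at 86.8 and 86.4 CPM against 74.8 and 65.6 CPM (-0.30; edgeR adjusted p = 0.333). Rpsa, the laminin receptor precursor at the back of the subunit, was at 290.4 and 270.8 CPM against 256.3 and 220.4 CPM (-0.24; edgeR adjusted p = 0.331).

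**Figure D4:**
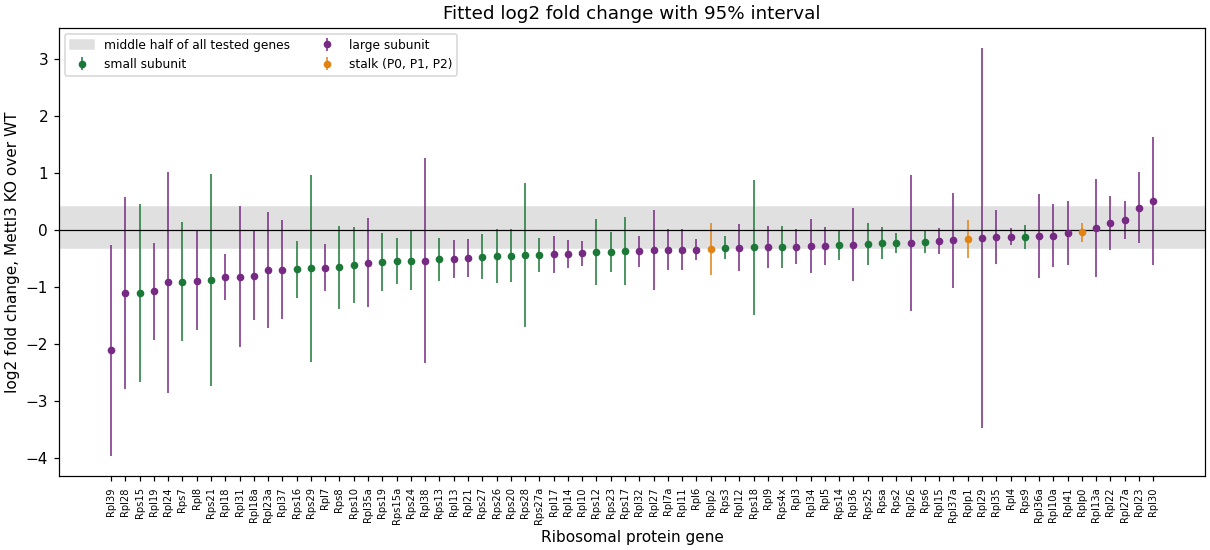
Fitted log2 fold change (knockout over WT) of 74 tested ribosomal protein genes in rising order, with 95% intervals from edgeR, coloured by subunit; the grey band is the interquartile range of all tested genes. Of these intervals, 25 lie wholly below 0 and 0 wholly above it, and Rpl29 has the widest.

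Of the 43 tested large subunit genes 38 had a log2 fold change below 0 (median over the 43, -0.35), and 29 had both knockout libraries lower and 3 both higher. The smallest adjusted p of any member was that of Rpl18 (ENSMUSG00000059070.16; GRCm38 chromosome 7, 45715457 to 45720836, plus strand), a gene singled out after its values were seen. It was at 76.8 and 80.0 CPM in WT and 46.8 and 41.1 CPM in the knockout. Both WT libraries were close and well above both knockout libraries, which gave -0.83 on the log2 scale (95% interval -1.23 to -0.43, SE 0.17; edgeR adjusted p = 0.053), or 1.78-fold lower. DESeq2 called it (adjusted p = 0.00113), as did edgeR where only genes of at least 5 CPM in 2 libraries were tested (adjusted p = 0.0278). Its adjusted p ranged over the other alternatives with all 4 libraries from 0.0523 to 0.153, and was 0.134 to 0.28 with 1 library left out. The log2 fold change itself was -0.75 to -0.93 in those leave-one-out fits.

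Rpl10, an X-linked gene whose product completes the large subunit near its catalytic centre, was at 540.1 and 523.7 CPM in WT and 412.9 and 386.8 CPM in the knockout (log2 fold change -0.41, SE 0.09; edgeR adjusted p = 0.0689). Rpl6 was at 962.2 and 930.6 CPM against 744.8 and 742.3 CPM (-0.35, SE 0.08; edgeR adjusted p = 0.0697). In neither gene did the genotypes overlap. DESeq2 called Rpl10 (adjusted p = 0.00141) and Rpl6 (0.00148), and so did edgeR under the 5 CPM filter (adjusted p = 0.0372 and 0.0391), but not with any library left out. With the mRNA-length trend removed Rpl10 was at -0.26. The members that DESeq2 called lower also included Rpl14, Rpl7, Rpl13, Rpl21, Rpl32, Rps27a and Rps3, each also lower in both knockout libraries. With edgeR the log2 fold changes of these 7 ranged from -0.32 for Rps3 to -0.67 for Rpl7 (SE 0.18), with Rpl14 at -0.43 (SE 0.11).

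Rpl5 and Rpl11 encode the partners of 5S rRNA that bind MDM2 when ribosome assembly fails. Rpl5 was at 122.0 and 111.4 CPM in WT and 100.3 and 92.2 CPM in the knockout (log2 fold change -0.28, 95% interval -0.61 to 0.05; edgeR adjusted p = 0.328). Rpl11 was at 137.6 and 113.4 CPM against 95.3 and 102.0 CPM (-0.35, 95% interval -0.71 to 0.01; edgeR adjusted p = 0.258). Neither gene overlapped between genotypes.

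The most negative value belonged to Rpl39 (GRCm38 chromosome X, 37082520 to 37085402, minus strand), a small protein of the exit tunnel, on few reads. It had 88 and 45 reads in WT and 15 and 14 in the knockout, or 3.13 and 1.79 against 0.583 and 0.562 CPM. The log2 fold change was -2.12 with a 95% interval of -3.96 to -0.27 (edgeR adjusted p = 0.19; DESeq2 adjusted p = 0.302), and -1.65 without WT replicate 1. Rpl19 was at 28.5 and 16.7 CPM against 11.2 and 10.4 CPM (-1.08, 95% interval -1.93 to -0.23; edgeR adjusted p = 0.156). Rpl28 was at 4.37 and 1.99 CPM against 1.75 and 1.24 CPM (-1.11, 95% interval -2.79 to 0.57; edgeR adjusted p = 0.445). For both genes WT replicate 1 was well above the other 3 libraries, and without it their values were -0.64 and -0.42. Rpl38, a gene known for patterning defects when mutated, was at 3.45 CPM in WT replicate 1 and 1.19, 1.36 and 1.93 CPM in the others. Its log2 fold change of -0.54 was 0.44 without WT replicate 1. Rpl24, at 1.03 and 0.916 CPM in WT and 0.505 and 0.522 CPM in the knockout, had an interval of -2.85 to 1.01.

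The 5 members with a positive log2 fold change were all of the large subunit, and none passed. Rpl30, an RNA-binding protein, was at 8.25 and 4.82 CPM in WT and 12 and 6.62 CPM in the knockout (0.50, 95% interval -0.62 to 1.62; edgeR adjusted p = 0.621), with overlap between genotypes. Without knockout replicate 1 its value was 0.0017, and it ranged up to 0.95 without WT replicate 1. Rpl23 was at 29.6 and 19.5 CPM against 33.0 and 31.9 CPM (0.39, 95% interval -0.23 to 1.01; edgeR adjusted p = 0.466), and at 0.13 or 0.72 on the log2 scale without WT replicate 2 or 1. Rpl27a, at 84.5 and 83 CPM against 95.4 and 93.5 CPM, had the tightest of the 5 values (0.17, 95% interval -0.16 to 0.51; edgeR adjusted p = 0.559). Rpl22, which is dispensable for the ribosome but needed by developing αβ T cells, was at 38.2 and 33.7 CPM against 38.9 and 39.1 CPM (0.12, 95% interval -0.35 to 0.58; edgeR adjusted p = 0.808). Rpl23, Rpl27a and Rpl22 were the 3 members with both knockout libraries above both WT libraries. Rpl13a, part of an inhibitor of translation in interferon-treated cells and host of 4 annotated snoRNAs, was at 10.1 and 9.04 CPM against 8.28 and 11.4 CPM (0.03, 95% interval -0.82 to 0.89; edgeR adjusted p = 0.975).

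The 2 most counted members had small differences with narrow intervals. Rpl4 was at 2869 and 2820 CPM in WT and 2631 and 2593 CPM in the knockout (-0.12 on the log2 scale, SE 0.06, 95% interval -0.27 to 0.02; edgeR adjusted p = 0.33), again with no overlap. Of the stalk genes, Rplp0 was at 1704 and 1658 CPM against 1649 and 1611 CPM (-0.04, 95% interval -0.21 to 0.12; edgeR adjusted p = 0.789). Rplp1 was at 104.1 and 96.7 CPM against 92.3 and 87.5 CPM (-0.16, 95% interval -0.50 to 0.17; edgeR adjusted p = 0.594). Rplp2 was at 50.4 and 44.4 CPM against 39.4 and 35.6 CPM (-0.34, 95% interval -0.80 to 0.12; edgeR adjusted p = 0.388). None of the 3 stalk genes overlapped between genotypes. Rpl41, the smallest member, was at 24.8 and 22.8 CPM against 21.6 and 24.4 CPM (-0.05, 95% interval -0.62 to 0.51; edgeR adjusted p = 0.937), and its sign changed with the scaling and with the library left out. Rplp0 likewise was at 0.01 with total-count scaling.

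Rpl29, singled out after its values were seen, had the most uneven values of all members. It was at 163.8 and 3.62 CPM in WT replicates 1 and 2 and at 35.8 and 119.2 CPM in knockout replicates 1 and 2, on 4605, 91, 922 and 2970 reads. The libraries of each genotype thus differed far more than the genotypes (log2 fold change -0.14, SE 1.27). Rps18 showed a milder form, at 25.8 and 8.52 CPM in WT and 11.6 and 16.7 CPM in the knockout (-0.31, 95% interval -1.49 to 0.88). In all, the WT libraries differed more than 2-fold for 8 members, and the knockout libraries for 1. Here too the share of all tested genes is not given.

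Members with and without the pyrimidine start, and with and without a snoRNA (a small RNA cut from an intron that guides rRNA modification), had close medians. The median log2 fold change was -0.35 for the 22 members with an annotated pyrimidine start, 20 of them negative, and -0.39 for the other 54 tested members, 51 of them negative. It was -0.38 for the 29 members that host at least 1 annotated snoRNA on their strand and -0.39 for the other 47 tested. Whether these medians differ was not tested.

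**Figure D5:**
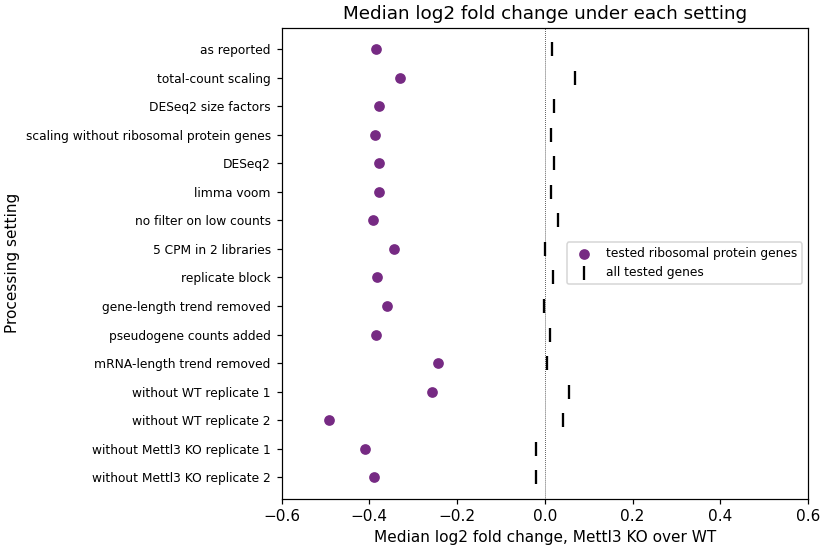
Median log2 fold change (knockout over WT) of the tested ribosomal protein genes (points) and of all tested genes (bars) under each processing setting. The points lie between -0.49 and -0.24 in every setting shown.

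Ribosomal protein genes outside the symbol rule were read for comparison. For this list and those below, 10.5% of all tested genes were higher and 9.69% lower at an unadjusted p under 0.05. DESeq2 called 4.67% of all genes higher and 4.73% lower. Of 9 such genes edgeR called 0 (2 lower at an unadjusted p under 0.05, and 2 lower by DESeq2), 7 had a negative log2 fold change and the median was -0.25. It was -0.03 when WT replicate 1 was left out, -0.41 when WT replicate 2 was, and -0.05 with the mRNA-length trend removed. Fau, a ubiquitin-like fusion with a small subunit protein, was at 49.0 and 45.9 CPM in WT and 27.7 and 28.3 CPM in the knockout (-0.76, SE 0.20; edgeR adjusted p = 0.0961). Rps3a1 was at 653.5 and 585.3 CPM against 490.0 and 494.7 CPM (-0.33, SE 0.10; edgeR adjusted p = 0.119). Rack1, a scaffold on the small subunit, had a log2 fold change of -0.17 (SE 0.13). Rpl22l1, the paralog of Rpl22, was at 18.7 and 15.0 CPM against 8.51 and 12.3 CPM (-0.71, SE 0.34; edgeR adjusted p = 0.292). Log2 fold changes were -0.33 (Rps27l), -0.25 (Rps27rt), 0.06 (Rpl36al) and -0.003 (Rpl7l1).

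Genes that build the ribosome centred above 0. Of 40 tested ribosome assembly genes 10 had a negative log2 fold change, and the median was 0.13. With edgeR 1 was called higher and 0 lower, where 2.59% of all tested genes were called. At an unadjusted p under 0.05, 9 were higher and 2 lower, where 10.5% and 9.69% of all tested genes were. DESeq2 called 3 higher and 1 lower, against 4.67% and 4.73% of all genes. The gene that edgeR called was Ncl, which encodes nucleolin, a carrier of early rRNA processing. Ncl was at 1044 and 953.5 CPM in WT and 1616 and 1628 CPM in the knockout (log2 fold change 0.70, SE 0.08; edgeR adjusted p = 0.00816). Ncl did not pass without knockout replicate 1 (edgeR adjusted p = 0.0793) or 2 (0.09), with values of 0.70 and 0.69, nor with the replicate number as a block (0.074). Nop2, an rRNA methyltransferase, had a value of 0.47 and Rrs1, an assembly factor of the large subunit, 0.61 (edgeR adjusted p = 0.0684 and 0.0812). Npm1, the chief nucleolar chaperone, was at 339.0 and 291.4 CPM against 234.6 and 247.7 CPM (-0.39; edgeR adjusted p = 0.133). Of 15 RNA polymerase I genes edgeR called 0 (2 higher at an unadjusted p under 0.05, and 1 higher by DESeq2), with a median of -0.04, or -0.06 to 0.09 with 1 library left out. Taf1c, of its selectivity factor, was at 0.83 (edgeR adjusted p = 0.0678), Polr1a at 0.49 (0.187) and Polr1b at 0.29 (0.338).

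Mitochondrial ribosomal protein genes centred on no difference, with 42 of 77 tested negative and a median log2 fold change of -0.01. With edgeR 1 was called higher and 0 lower, against 1.09% and 1.51% of all tested genes. The median was 0.09 when WT replicate 1 was left out and -0.13 when WT replicate 2 was. The gene that edgeR called was Mrpl43, at 59.3 and 53.2 CPM in WT and 117.5 and 94.2 CPM in the knockout (0.91, SE 0.18, edgeR adjusted p = 0.0473). Mrpl43 failed the test without the low-count filter (edgeR adjusted p = 0.0652), with the replicate number as a block (0.119) and with limma voom (adjusted p = 0.0549). In the other edgeR alternatives with all 4 libraries its adjusted p was 0.0192 to 0.0479, and DESeq2 called it (adjusted p = 0.000232). With 1 library left out its log2 fold change was 0.74 to 1.06, and it was not called in those fits. Mrpl16 and Mrps2 had values of 0.75 and 0.74 (edgeR adjusted p = 0.0529 and 0.0621). DESeq2 called 4 of the 77 higher and 0 lower, where it called 4.67% and 4.73% of all genes.

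Among translation factors edgeR called 0. The 8 elongation genes, Tpt1 included, had a median of -0.14, with 1 lower at an unadjusted p under 0.05 and 1 lower by DESeq2. That median was -0.26 without knockout replicate 1, -0.22 without WT replicate 2 and -0.04 without knockout replicate 2. The 31 initiation genes, Pabpc1 included, had a median of -0.16, with 21 negative, 1 higher and 4 lower at an unadjusted p under 0.05, and 1 higher by DESeq2. Their median was -0.10 without knockout replicate 2. Tpt1, whose mRNA is a known carrier of the pyrimidine start, was at 149.4 and 139.8 CPM in WT and 105.4 and 108.1 CPM in the knockout (-0.44, SE 0.13; edgeR adjusted p = 0.124). Eif5a and Eef1d had values of -0.23 and -0.25 (edgeR adjusted p = 0.27 and 0.343). Eif1a, which scans for the start codon, was at 0.52 (edgeR adjusted p = 0.0743), and Eif3e and Eif3g, subunits of initiation factor 3, at -0.36 and -0.33 (0.152 and 0.156).

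Of 17 genes that control growth and ribosomal protein mRNA, edgeR called 0 higher and 1 lower, against 1.09% and 1.51% of all tested genes. At an unadjusted p under 0.05, 4 were lower and 0 higher, and DESeq2 called 2 lower and 0 higher. The gene that edgeR called was Mxd4, which encodes a repressor that competes with MYC for MAX. Mxd4 went from 88.8 and 105.2 CPM to 54.6 and 51.9 CPM (-0.86, SE 0.17; edgeR adjusted p = 0.0476). Mxd4 also passed with scaling without ribosomal protein genes (edgeR adjusted p = 0.0470), pseudogene counts added (0.0477) and the 5 CPM filter (0.0226). With the exon-length or the mRNA-length trend removed it passed too (edgeR adjusted p = 0.0453 and 0.0421), and DESeq2 called it (adjusted p = 0.000357). With the replicate number as a block Mxd4 had an edgeR adjusted p of 0.143. It did not pass with total-count scaling (edgeR adjusted p = 0.0507), DESeq2's size factors (0.0503), limma voom (0.0549) or no low-count filter (0.0651), nor with any library left out (0.0794 to 0.249). Mycn, a MYC family activator of ribosome genes, was at 17.8 and 15.9 CPM in WT and 5.75 and 6.02 CPM in the knockout (-1.52, SE 0.35; edgeR adjusted p = 0.068), with no overlap. Eif4ebp2, an mTOR-regulated brake on initiation, was at -0.45 (edgeR adjusted p = 0.169).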

How the data were processed

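RNA of 4 libraries, 2 per genotype, was analysed. The authors deposited 1 table of raw counts, with genes in rows and a column for each library. The submitters' processing notes name HTSeq 0.6.1, STAR 2.6.0a, DESeq2 1.18.1, FastQC 0.11.5 and the build mm10. For the annotation, the strand setting and multiply placed reads, the sources used here give nothing. Of 53715 gene IDs 53620 matched GENCODE M21 (51464 with the version). Smart-seq2 marks no strand, so reads where genes on opposite strands overlap cannot be assigned by strand.

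In R 4.3.3, edgeR 4.0.16 was fitted to all genes passing filterByExpr (TMM; glmQLFit with legacy=FALSE and robust=TRUE; glmQLFTest, two-sided; no covariate, 2 residual degrees of freedom), with Benjamini-Hochberg adjustment at 0.05. The fit was run on counts simulated with known changes. Those counts held no shift of 1 library across many genes, such as that of WT replicate 1, so the run does not cover it. SE is the log2 fold change over the root of F. Intervals (95%) and floors of 3 counts cover counting and library error only. Ratios of 2 libraries used CPM plus 0.1. Alternatives used DESeq2 1.42.0, limma 3.58.1 voom, other scalings and filters, length trends (loess, span 0.3), pseudogene counts added, a replicate block and each library left out; a lone library was assumed to vary like the others.

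Results for a few single genes are not reported here or drawn. Members and lists were chosen with earlier results of these data known. Named members were a preset list, the 6 highest and 6 lowest log2 fold changes and the extremes of level per length; Rpl18, Rpl29, Rps18, the DESeq2 calls and the members with printed starts were added after values were seen. Lists covered other ribosomal protein, elongation, initiation, assembly, RNA polymerase I, growth control and mitochondrial ribosomal protein genes and cell type markers. Of the latter, edgeR called 1 higher and 1 lower of 8 iNKT and T cell markers and 2 higher of 5 NKT2 markers. It called 0 of the 4, 3 and 4 tested B cell, erythroid and thymic stroma markers. All 4 B cell and all 3 erythroid markers, at low levels, had both knockout libraries above both WT libraries (25.4% of all tested genes did). Of the thymic stroma markers 1 did, and 2 had both below.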

Additional observations from a re-analysis of the deposited data

How the results depend on the processing

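The members' median log2 fold change stayed negative in every alternative run. It moved beyond the spread between libraries of the same genotype (SD 0.108) with the mRNA-length trend removed (-0.24, chosen after seeing the data) and without WT replicate 1 (-0.26). Without WT replicate 2 (-0.49) the move came just short of that spread. The spread came mostly from WT, where the members' median deviation was 0.28 and 0.07, against -0.18 and -0.20 in the knockout libraries. With 1 library left out the median log2 fold change ranged from -0.49 to -0.26. The difference in summed share ranged from -0.235 to -0.0962 percentage points with 1 library left out. Members called lower numbered 11 of 76 with DESeq2 (14.5%, against 4.73% of all genes), 3 of 67 at 5 CPM or more in 2 libraries (4.48%, against 3.99%, near the background) and 0 otherwise. Calls over the whole table, 368 as reported, were 1333 with DESeq2, 727 at 5 CPM or more and 41 to 172 with 1 library left out.

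With the replicate number as a block the table held 33 calls, 0 of them members, and the members' median was -0.38. The numbers were not shown to pair the libraries: the deviations of same-numbered libraries had a correlation of -0.02 across genes. The block leaves fewer residual degrees of freedom, and a block with crossed numbers was not run.

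Of the named members' values, 11 changed sign. With 1 library left out, Rpl13a ranged from -0.22 to 0.25 (below 0 without WT replicate 2 or knockout replicate 2), Rpl38 from -1.08 to 0.44 and Rps15 from -1.71 to 0.0932 (both above 0 without WT replicate 1), and Rpl41 from -0.15 to 0.0330 (above 0 without WT replicate 1 or knockout replicate 1). Rpl41 was at 0.00025 with total-count scaling, 0.0292 with the exon-length and 0.20 with the mRNA-length trend removed. Rplp1 was at 0.11 with the mRNA-length trend removed, and Rplp0 at 0.00887 with total-count scaling. The cause was not tested. Members under 10 CPM rest on fewer reads than the others, and differences of the size seen for Rpl24 or Rpl28 were not resolved with these libraries. For Rpl28, on 123 and 50 reads in WT and 45 and 31 in the knockout, the log2 ratio of WT replicate 2 to replicate 1 was -1.10.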
